A study of Mus musculus with 50 samples.

Results

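The 44 genes described here encode the machinery that brings new proteins into the endoplasmic reticulum (ER), glycosylates them and carries them out again. They were chosen by name, though with earlier results of these data known. The list covers the signal recognition particle (SRP) and its receptor, the translocon and the signal peptidase. It also covers the oligosaccharyltransferase, the COPII coat and the receptors that load or retrieve the cargo of that coat. A gene was kept if its mean level over all libraries reached 1 CPM (the read count scaled to library size). All 44 of the 44 genes named passed, among 39056 entries of the gene table, of which 16460 had enough counts to be tested. Kdelr3 passed, at a mean of 1.13 CPM, only through the treated group in which it was high, described below.

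Secreted and membrane proteins carry a signal that SRP binds as it leaves the ribosome. SRP docks at its receptor on the ER, the chain passes through the Sec61 channel, signal peptidase removes the signal, and the oligosaccharyltransferase adds preformed glycans to asparagines. Folded cargo leaves in vesicles coated with COPII, and escaped ER residents are returned by KDEL receptors. When unfolded proteins accumulate in the ER, the sensors IRE1, PERK and ATF6 switch on a transcriptional programme, the unfolded protein response, that is known to include many of these genes. Oligodendrocytes, the myelin-forming cells of the brain, make large amounts of membrane and secretory protein as they mature.

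The samples were 50 bulk RNA-seq libraries from mouse oligodendrocyte precursors on a C57BL/6 background, purified by immunopanning from cortices of 6-day-old pups, passaged 2 times and, before treatment, left to differentiate for a further 12 to 14 h. Cells were wild type or homozygous null for Nrf2 (Nrf2 -/-, gene symbol Nfe2l2), a transcription factor of the antioxidant response, and were untreated, given interferon-γ (IFN-γ, 200 U/ml) or given thapsigargin, which blocks the calcium pump of the ER and which the labels list at 200 uM. Untreated and IFN-γ libraries were taken at 1, 8, 24 and 48 h, and thapsigargin libraries at 1 and 8 h, each with 2 wild-type and 3 Nrf2 -/- libraries. The design text names 4 mutant replicates where 3 are analysed here, and the tissue tag says whole brain where the growth protocol says cortex. Plates of cultured cells were assigned to treatments, and nothing says that the libraries of a group came from separate animals or cultures, so p-values measure the spread between these libraries.

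Libraries held 32252272 to 54657205 counts, and the lowest correlation between libraries of a group was 0.994. Nfe2l2 lay between 5.12 and 70.4 CPM in wild-type libraries and between 0.0973 and 0.859 CPM in Nrf2 -/- libraries, except for 7.62 CPM in replicate 3 of the untreated Nrf2 -/- group at 8 h. In replicate 2 of each Nrf2 -/- group at 8 h, the title and the genotype tag disagree, and the title was followed. Leaving out these 3 libraries gave 40 members higher and 2 lower after 8 h of thapsigargin and 4 higher and 13 lower after 8 h of IFN-γ, against 41 and 2, and 5 and 16, with them. Markers fixed for oligodendrocytes (9 genes) summed to a median of 8313 CPM in untreated cells at 8 h. Those of astrocytes (5 genes) summed to 15.2 CPM and those of microglia (6 genes, of which 3 were at 0) to 1.49 CPM.

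Per kilobase of exon, the members of untreated cells spanned a wide range of levels. Ssr3, a subunit of the translocon-associated TRAP complex, was the highest at 116 ± 22.9 RPKM (reads per kilobase of exon, scaled to library size; SD over 20 untreated libraries), followed by Sar1b at 67.8 ± 6.14 RPKM and Srp14 at 65.3 ± 9.02 RPKM, which did not differ beyond their spread. The lowest were the COPII cargo adaptors Sec24a at 3.84 ± 1.79 and Sec24d at 2.31 ± 0.65 RPKM, and the KDEL receptor Kdelr3 at 0.33 ± 0.28 RPKM.

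Promoter sequence was read for the members because the response to thapsigargin, given below, was shared by most of them and very unequal in size. RefSeq promoters of the GRCm38.p6 build, each 250 bases before to 50 after a transcript start, were available for 36 of the 44. Those without an entry were Srp19, Srp68, Sec61a1, Ssr2, Spcs3, Sec11c, Kdelr2 and Tmed2, most of which were strong responders to thapsigargin. The median log2 fold change at 8 h was 1.34 in the 36 and 1.44 in all 44. The available promoters were searched on both strands for 5 motifs linked to the unfolded protein response. The XBP1- and ATF6-type element UPRE, TGACGTGG, occurred in 3 members, among them Kdelr3 and Sec24d (8.333% of the 36, against 0.7142% of 27025 genes with a promoter entry). Kdelr3 and Sec24d also ranked 1 and 2 among the 44 members in fold change after 8 h of thapsigargin, and the third ranked 18. Kdelr3 passed the filter on level only through those thapsigargin libraries, so its rank is given as a description. The shared core ACGTG, which UPRE contains, occurred in 20 members (55.56%, against 21.78% of all genes). The median log2 fold change was 1.36 in members with the core and 1.34 in those without, so among these 36 its presence did not sort the members by response. The members without a promoter entry are not covered. The motifs ERSE (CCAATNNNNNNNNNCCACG) and ERSE-II (ATTGGNCCACG) were found in none of the 36 windows, and in 0.1369% and 0.0444% of all genes. The ATF4-type motif CARE (TGATGNAA) was found in Kdelr1 alone (2.778%, against 4.511% of all genes). These are matches of letters and were not tested as binding sites.

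The sequences of the UPRE matches in Kdelr3 and Sec24d, and of the cores in 2 COPII adaptors that responded least, are shown 5′ to 3′ on the strand of the gene, with the match in capitals. The first is the 250 bases before the start of Kdelr3 (chr15:79516158-79516407, plus strand), where the element begins 30 bases upstream on the opposite strand. The others are windows of 30 bases, from Sec24d (chr3:123267458-123267487, plus strand), Sec24c (chr14:20674234-20674263, plus strand) and Sec24b (chr3:130061059-130061088, minus strand). The Sec24d element begins 26 bases upstream of the RefSeq start, but GENCODE M21 starts the gene 41 bases upstream of that start. The Sec24b core begins 169 bases upstream of the RefSeq start, but GENCODE M21 starts the gene at 130061553. Both matches thus lie inside the gene as GENCODE M21 draws it.
Kdelr3: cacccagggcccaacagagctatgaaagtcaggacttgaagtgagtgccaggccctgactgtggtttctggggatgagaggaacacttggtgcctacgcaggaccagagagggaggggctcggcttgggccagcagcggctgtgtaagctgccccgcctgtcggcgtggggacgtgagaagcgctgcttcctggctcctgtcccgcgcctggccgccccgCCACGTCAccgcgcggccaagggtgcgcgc
Sec24d: cgcccgggcgccTGACGTGGcactagcaac
Sec24c: tgcctaaggccgACGTGgcagaaggagtgg
Sec24b: ccgaggatgggtACGTGggtgggctgggac

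Thapsigargin at 8 h, which tests the response to calcium loss from the ER, raised almost the whole set. Against untreated cells at 8 h, 41 of 44 members were higher and 2 were lower at an adjusted p below 0.05 (edgeR's quasi-likelihood test with Benjamini-Hochberg adjustment over all genes tested), where 34.3% of all 16460 genes were called higher and 32.9% lower. The median log2 fold change of the members was 1.44, against 0.01 for all genes. Every one of the 7 SRP, 9 translocon, 6 oligosaccharyltransferase and 6 cargo and retrieval genes rose, as did 4 of 5 signal peptidase genes and 9 of 11 COPII genes. Leaving out any 1 library gave 40 to 44 called members. The stress sensor targets Hspa5, an ER chaperone, and Ddit3, a transcription factor, rose by 3.41 and 5.85 on the log2 scale in the same comparison. The oligodendrocyte markers summed to a median of 2358 CPM in the thapsigargin libraries against 8313 CPM in untreated cells, the precursor markers to 3167 against 6581 CPM, and the neuronal markers to 23.1 against 14.1 CPM. The part of these shifts in the members' response was not tested, and in bulk RNA fewer cells of a type and less RNA per cell cannot be told apart.

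**Figure D1:**
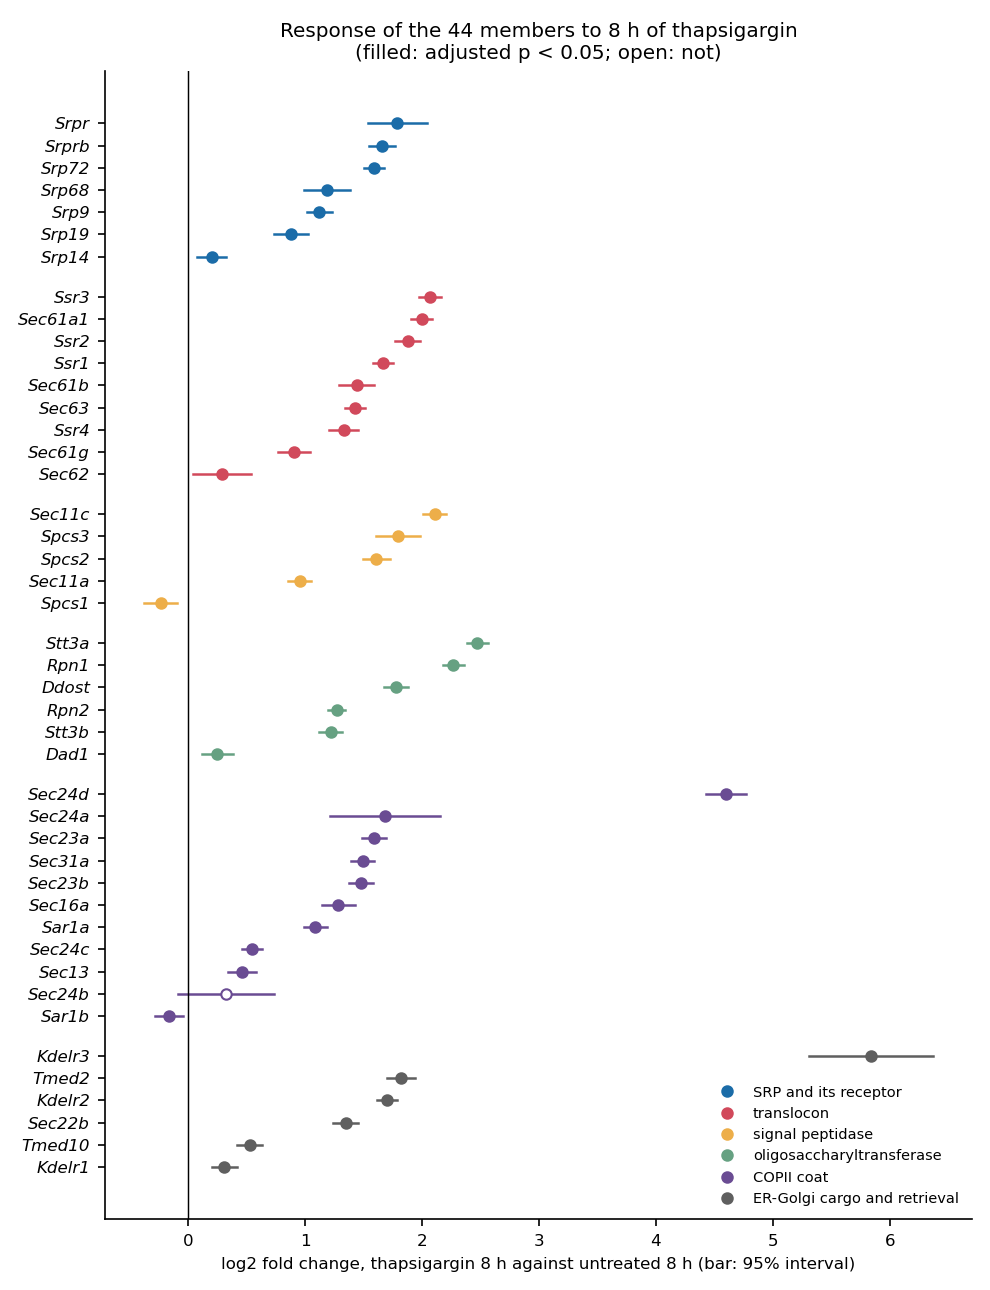
Log2 fold change of each of the 44 members after 8 h of thapsigargin against untreated cells at 8 h (5 libraries each), by role, with 95% intervals; filled points passed an adjusted p of 0.05. Kdelr3 (5.84) and Sec24d (4.60) stand far to the right of the others, Spcs1 and Sar1b lie below 0, and Sec24b is the open point.

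Among the coat genes the response was carried unequally by members of one family. Sec24d, 1 of 4 Sec24 adaptors that choose the cargo of a COPII vesicle, stood at 15.8 and 14.2 CPM in the wild-type and 14.4, 14.6 and 17.6 CPM in the Nrf2 -/- untreated libraries at 8 h. With thapsigargin it stood at 382 and 340 CPM in wild-type and 374, 382 and 380 CPM in Nrf2 -/- libraries, so that all 5 treated libraries lay far above all 5 untreated ones. Its log2 fold change was 4.60 ± 0.09 (SE, n = 5 against 5), or 24.2-fold (adjusted p = 4.18e-35). Per kilobase, Sec24d moved from 43rd to 21st of the 44 members, from 2.42 ± 0.22 to 58.7 ± 2.87 RPKM (SD, n = 5). Sec24a rose by 1.68 ± 0.23 and Sec24c by 0.54 ± 0.04. Sec24b had a log2 difference of 0.32 with a 95% interval of -0.09 to 0.73 and did not pass the test. The call on Sec24b hung on single libraries: without replicate 3 of the untreated Nrf2 -/- group its log2 difference was 0.54 (adjusted p = 0.0115), without wild-type thapsigargin replicate 1 it was 0.53 (adjusted p = 0.0289), and without wild-type thapsigargin replicate 2 it was 0.02.

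Of the remaining 7 coat genes, 6 rose, each by less than Sec24d, and Sar1b fell. The inner coat partners Sec23a and Sec23b rose by 1.59 and 1.48 on the log2 scale, the outer coat protein Sec31a by 1.49 and Sec13, which the nuclear pore also uses, by 0.46. Sec16a, the scaffold of ER exit sites, rose by 1.28. The small GTPases that start coat assembly split: Sar1a rose by 1.09 ± 0.05, whereas Sar1b fell by 0.16. Sar1b stood at 83.3, 90.0, 83.8, 80.8 and 75.4 CPM in untreated libraries and at 77.6, 67.1, 74.5, 75.8 and 79.0 CPM with thapsigargin, and these ranges overlap. Its adjusted p of 0.0154 became 0.0802 without wild-type untreated replicate 2 and 0.137 without wild-type thapsigargin replicate 2.

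The ratio between paired members, per kilobase, shows the same inequality within families; the pairs were chosen after their values were seen and are given as a description. The log2 ratio of Sec24d to Sec24c changed from -3.43 ± 0.11 in untreated cells to 0.63 ± 0.08 with thapsigargin (SD, n = 5), and that of Sec24a to Sec24b from -0.88 ± 0.12 to 0.43 ± 0.17. Sar1a to Sar1b went from -0.33 ± 0.05 to 0.91 ± 0.02, and Kdelr2 to Kdelr1 from 0.92 ± 0.07 to 2.32 ± 0.02. The catalytic subunits also shifted: Sec11c to Sec11a, of signal peptidase, from -0.50 ± 0.10 to 0.65 ± 0.06, and Stt3a to Stt3b, of the oligosaccharyltransferase, from -1.51 ± 0.07 to -0.24 ± 0.09. Sec23a to Sec23b stayed nearly level, at 0.87 ± 0.04 and 0.98 ± 0.09. The length used is that of all annotated exons of a gene, such as 8948 bases for Stt3a and 4221 for Stt3b. The level and sign of a ratio depend on these lengths, whereas its change between conditions does not.

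**Figure D2:**
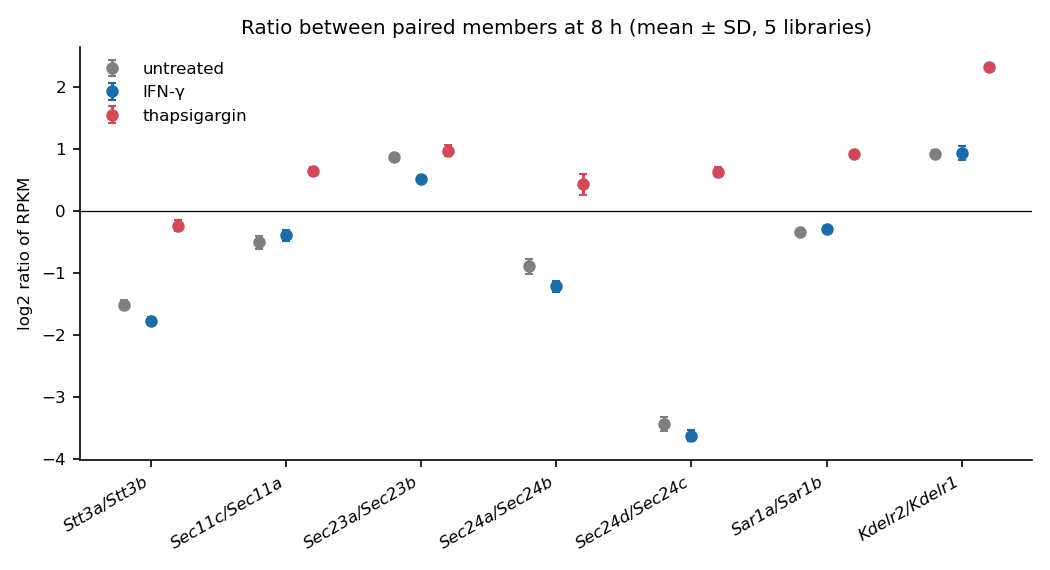
Log2 ratio of RPKM between paired members at 8 h in untreated, IFN-γ and thapsigargin libraries (mean and SD of 5 libraries each). Sec24d to Sec24c moves from -3.43 to 0.63 with thapsigargin, whereas Sec23a to Sec23b stays between 0.52 and 0.98 in the 3 conditions.

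Among the cargo and retrieval genes, Kdelr3 had the largest fold of all members from the smallest level. Its raw counts were 6 and 7 in wild-type and 8, 5 and 2 in Nrf2 -/- untreated libraries at 8 h, and 311 and 319 in wild-type and 287, 299 and 250 in Nrf2 -/- libraries with thapsigargin. In CPM this was 0.053 to 0.213 against 8.26 to 8.81, with no overlap. The mean of Kdelr3 over all libraries was 1.13 CPM and would lie below the filter of 1 CPM without these treated libraries. Its place in the set thus rests on the group where it was high, and its rank in fold is not independent of that. The log2 fold change was 5.84 ± 0.26 (SE; adjusted p = 3.03e-22), but with transcript-level estimates summed per gene it was 3.27, and the cause of that gap was not tested. Kdelr2 rose by 1.70 ± 0.04 and Kdelr1 by 0.31 ± 0.05. The p24 cargo receptor Tmed2 rose by 1.82 and its partner Tmed10 by 0.53. Sec22b, a SNARE of vesicles between ER and Golgi, rose by 1.35.

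The genes of protein entry rose in every complex. Srpr, the SRP receptor subunit that binds SRP, went from 48.9, 57.9, 52.4, 63.4 and 65.98 CPM to 174, 186, 204, 216 and 223 CPM, a log2 fold change of 1.79 ± 0.12. Its membrane anchor Srprb, whose exons share 20.71% of their length with a same-strand readthrough gene model, rose by 1.66. Of the SRP proteins, Srp72 rose most (1.59) and Srp14, which with Srp9 slows translation, least (0.20). Srp14 missed the threshold without wild-type thapsigargin replicate 1 (0.12, adjusted p = 0.116). In the channel, Sec61a1, the pore itself, rose by 2.00 ± 0.05, and the small subunits Sec61b and Sec61g by 1.44 and 0.91. The TRAP subunits Ssr1, Ssr2, Ssr3 and Ssr4 rose by 1.67, 1.88, 2.07 and 1.33. Ssr3 went from 452, 446, 459, 405 and 397 CPM to 1923, 1772, 1696, 1842 and 1849 CPM and remained the most abundant member per kilobase, at 435 ± 20.6 RPKM. Sec63, which recruits the chaperone BiP to the channel, rose by 1.43, whereas its partner Sec62 rose by 0.29 ± 0.12 (adjusted p = 0.0389) and missed the threshold when any of 5 single libraries was left out (log2 difference 0.23 to 0.27).

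Of the 11 signal peptidase and oligosaccharyltransferase genes, 10 rose, by unequal amounts, and Spcs1 fell. Sec11c, a catalytic subunit of signal peptidase, went from 54.2, 55.6, 56.6, 54.5 and 48.98 CPM to 240, 220, 226, 250 and 235 CPM, a log2 fold change of 2.11 ± 0.05, and the other catalytic subunit Sec11a rose by 0.95. The accessory subunits Spcs2 and Spcs3 rose by 1.61 and 1.79. Spcs1 fell by 0.23 ± 0.07 (adjusted p = 0.00344), from 81.7, 84.4, 83.8, 75.5 and 67.6 CPM to 73.6, 59.4, 66.9, 72.5 and 65.3 CPM. These ranges overlap, 16.3% of its exon length overlaps Glt8d1 on the opposite strand, and without wild-type thapsigargin replicate 2 the adjusted p was 0.0634. Stt3a, the catalytic subunit that acts on chains still entering the ER, went from 142, 140, 138, 138 and 128 CPM to 810, 715, 753, 759 and 789 CPM, a log2 fold change of 2.47 ± 0.04 (adjusted p = 1.05e-35). Stt3b, which acts on chains that have already entered, rose by 1.22. Rpn1, Ddost and Rpn2, which hold the enzyme together, rose by 2.27, 1.78 and 1.27. Dad1 rose by 0.25 and had an adjusted p of 0.0597 without wild-type thapsigargin replicate 1.

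**Figure D3:**
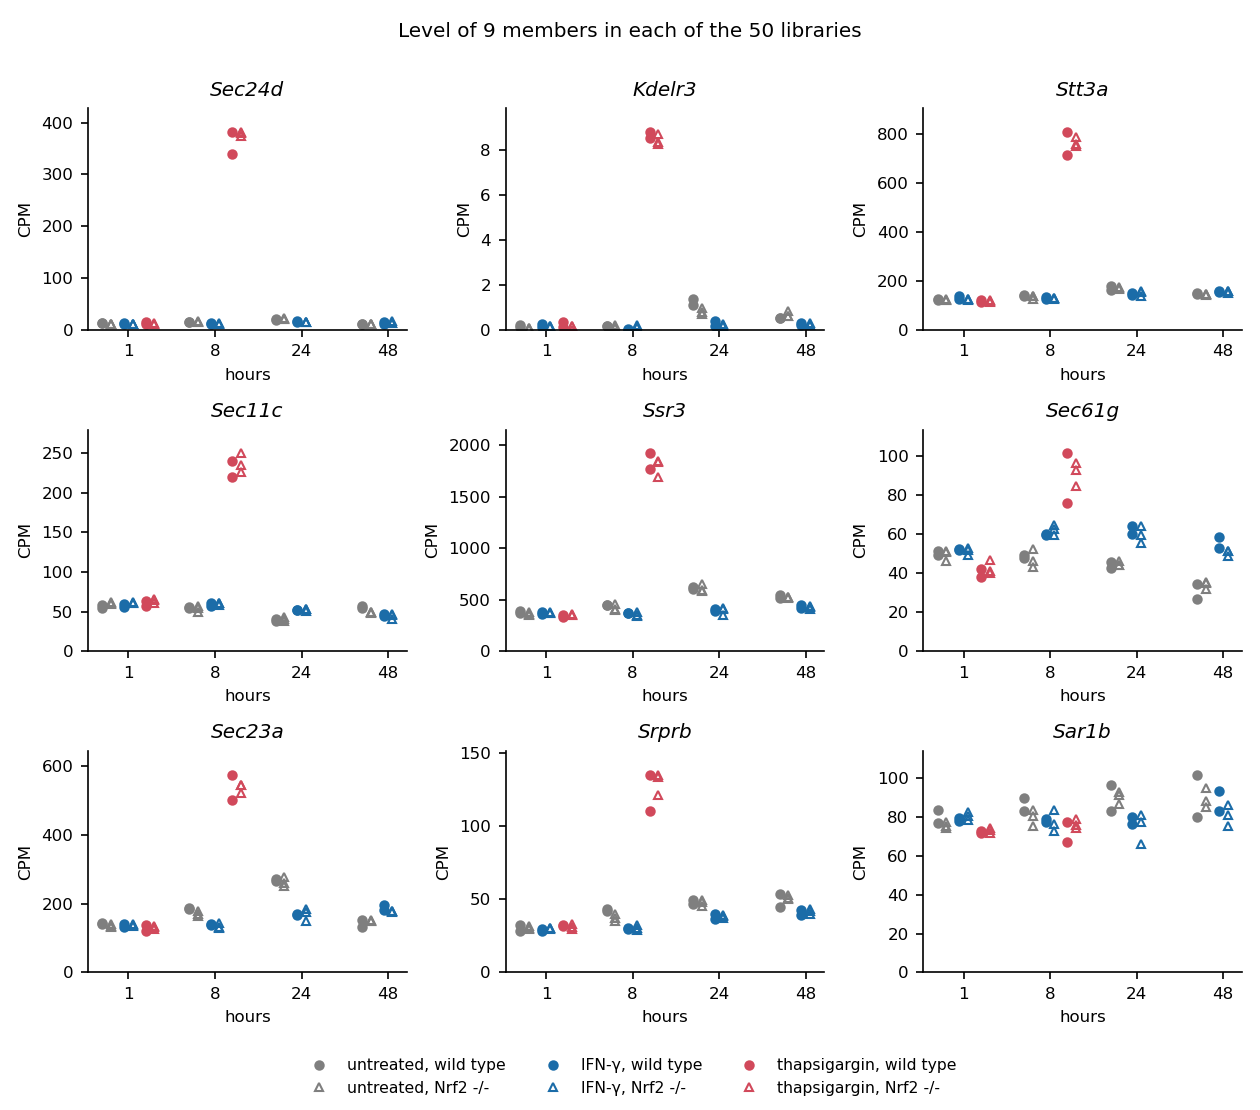
CPM of 9 members in each library, by hour, treatment (colour) and genotype (filled, wild type; open, Nrf2 -/-). The thapsigargin libraries at 8 h stand above all others for the first 8 genes shown, most of all for Sec24d and Kdelr3, while Sar1b does not separate; the IFN-γ libraries of Sec61g lie above the untreated ones from 8 h on.

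After 1 h of thapsigargin the picture was different. Sec16a (0.22) and Rpn1 (0.17) rose and 8 members fell, where 12.9% of all genes were called higher and 7.52% lower. The 8 were Srp14, Sec61b, Sec61g, Ssr1, Ssr2, Spcs1, Rpn2 and Kdelr2, with log2 changes from -0.41 for Sec61b to -0.11 for Rpn2. At 8 h 7 of them rose, as did 41 of all 44 members. The count of 10 was 4 without wild-type thapsigargin replicate 1, 6 without wild-type untreated replicate 2, and 4 with transcript-level estimates, while Sec61b, Sec61g and Ssr1 passed whichever 1 library was left out. Sec61g did not pass with transcript-level estimates (-0.10, adjusted p = 0.424) or in Nrf2 -/- cells alone (-0.22, adjusted p = 0.109). The change from the 1 h to the 8 h response, tested as such, was upward for 40 members and downward for 0 (27.1% and 28.7% of all genes), with a median of 1.45 on the log2 scale.

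The genes around the members in the same pathways, from lists drawn up beside them, moved less uniformly at 8 h. Of 107 tested, 72 rose and 12 fell with thapsigargin, with a median of 0.78. All 10 genes of glycan trimming and folding control rose, as did 12 of 13 COPI coat genes and 22 of 28 other COPII and cargo receptor genes. Of 27 genes that build the lipid-linked glycan, 18 rose and 4 fell, and of 23 other targeting and insertion genes, 6 rose and 5 fell. The 3 highest were Sec16b, the second ER exit site scaffold (4.25), Edem1, which hands misfolded glycoproteins to degradation (2.88), and Magt1, a subunit of the Stt3b form of the oligosaccharyltransferase (2.54). The 3 lowest were Tram2 (-1.12), Mpdu1 (-0.38), needed to use mannose and glucose donors, and Tusc3 (-0.34), which can take the place of Magt1.

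IFN-γ, the cytokine arm of the study, left the set nearly level in the median, with changes in single members that ranged from -2.08 to 0.71 on the log2 scale. Each change is the difference from untreated cells of the same hour, whose own levels moved over the hours. A member said to fall or rise was lower or higher than those cells, and need not have changed over time. At 1 h, 0 of 44 members were called by edgeR's quasi-likelihood test or by DESeq2, and 0 had an unadjusted p below 0.05, where 2.73% of all genes were called higher and 0.911% lower. At 8 h, 5 members were higher and 16 lower (all genes: 19.4% and 20.4%), with a median log2 change of -0.09. At 24 h, 3 were higher and 24 lower (27.6% and 28.4%), with a median of -0.18. At 48 h, 13 were higher and 17 lower (27.3% and 28.5%), with a median of 0.01; without the filter on low counts the same 48 h comparison gave 16 higher and 14 lower. Oligodendrocyte markers summed to a median of 5625 CPM with IFN-γ against 8313 CPM without at 8 h, precursor markers to 4204 against 6581 CPM and neuronal markers to 26.8 against 14.1 CPM. Oligodendrocyte markers summed to 6952 against 19221 CPM at 24 h, and to 18084 against 35358 CPM at 48 h. Precursor markers were lower with IFN-γ at 24 h (3957 against 5864 CPM) but higher at 48 h (3906 against 3269 CPM). Astrocyte markers summed to 40.9 against 75.2 CPM at 48 h, and microglial markers to 3.78 against 1.49 CPM at 8 h. The part of these differences in the members' values was not tested.

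Among the classes of members, the COPII coat had the lowest median at 24 h, -0.27. Of its 11 members 10 fell, all but Sec24b (-0.01), where 28.4% of all genes were called lower. The shift was not particular to COPII: 9 of 13 COPI coat genes were also lower, with a median of -0.25. Of 28 other COPII and cargo receptor genes, 14 were lower and 5 higher, with a median of -0.13. The fall of Sec24a (-0.58) was lost without any of 6 single libraries. At 48 h, 5 of the 11 were higher, Sec13, Sec23a, Sec23b, Sec24d and Sec31a, and 3 were lower (27.3% and 28.5% of all genes). All 5 were among those lower at 24 h, which says little because 10 of the 11 were lower then. Sec23a stood at 273, 266, 251, 260 and 277 CPM in untreated libraries at 24 h and at 169, 172, 151, 177 and 185 CPM with IFN-γ, and at 48 h at 153, 132, 153, 150 and 149 CPM against 197, 183, 179, 177 and 180 CPM. The libraries did not overlap at either hour, and the sign was opposite: -0.64 ± 0.05 (adjusted p = 1.29e-14) and 0.33 ± 0.05 (adjusted p = 2.37e-07). The untreated level of Sec23a moved most: 131 to 143 CPM at 1 h, 251 to 277 CPM at 24 h and 132 to 153 CPM at 48 h. With IFN-γ it was 134 to 142, 151 to 185 and 177 to 197 CPM at the same hours. Sec24d fell by 0.40 at 8 h and by 0.45 at 24 h, and rose by 0.32 at 48 h. Sec24a had the largest fall of the class, -0.82 at 48 h, but 1 untreated library, wild-type replicate 2 at 108 CPM beside 42.9 to 55.3 CPM in the other 4, weighed on it, and without that library the value was -0.41 (adjusted p = 0.143). The small rises at 48 h of Sec13 (0.14), Sec23b (0.12) and Sec31a (0.13) were lost without any of 5, 3 and 2 single libraries, wild-type untreated replicate 2 giving 0.08 for Sec13 and 0.10 for Sec23b, and wild-type untreated replicate 1 giving 0.07 for Sec31a.

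**Figure D4:**
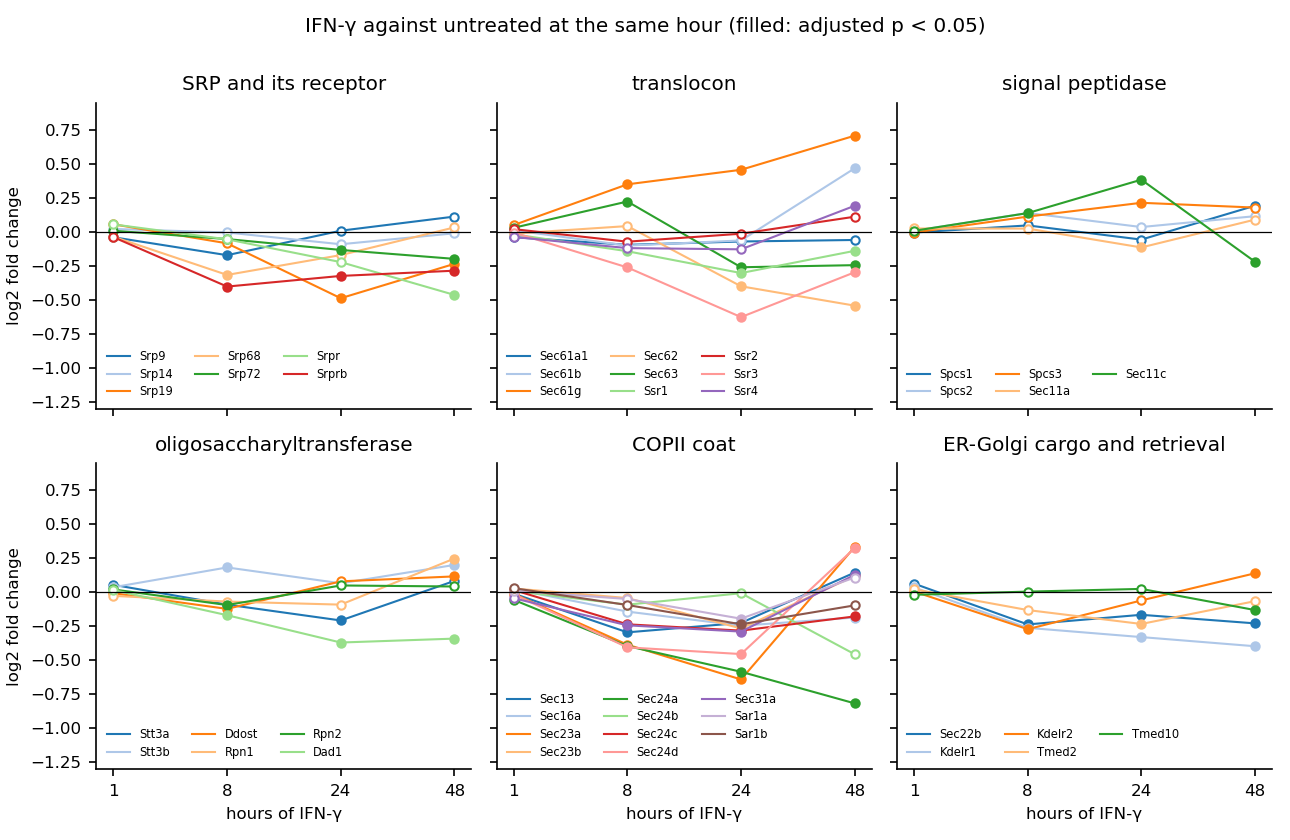
Log2 fold change of the members with IFN-γ against untreated cells of the same hour (1, 8, 24 and 48 h), by role; filled points passed an adjusted p of 0.05, and Kdelr3 is left out because its changes lie outside the axis. Most COPII points lie below 0 at 24 h and several above 0 at 48 h, each against untreated cells whose own level moved with the hour. Sec61g is the member with filled points above 0 at 8, 24 and 48 h.

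Sec61g, the small γ subunit of the channel, was the only one of the 44 called higher at 8, 24 and 48 h of IFN-γ, by 0.35, 0.46 and 0.71 on the log2 scale, where 9.56% of all genes were called higher at all of these hours. With transcript-level estimates the values were 0.88, 0.70 and 0.87. At 48 h it stood at 34.56, 27, 35.56, 34.96 and 32.04 CPM without and 58.5, 52.8, 51.2, 51.5 and 48.7 CPM with IFN-γ, and the libraries did not overlap (0.71 ± 0.07, adjusted p = 9.00e-12). Its partner Sec61b did not pass at 8 h (-0.10) or 24 h (-0.06) and rose by 0.47 at 48 h, while the pore subunit Sec61a1 passed at no hour. In the TRAP complex, Ssr3 was lower than in untreated cells at 8, 24 and 48 h, by 0.63 at 24 h. At 24 h it stood at 621, 605, 583, 599 and 648 CPM without and 393, 411, 350, 405 and 414 CPM with IFN-γ. Untreated libraries at 1 h held 353 to 386 CPM of Ssr3, so the untreated level had climbed by 24 h. Sec62 and Sec63 fell at 24 h (-0.40 and -0.26) and 48 h (-0.54 and -0.24); without wild-type IFN-γ replicate 1 the last value was -0.14.

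The members lower at each of 8, 24 and 48 h numbered 7: Srprb, Ssr1, Ssr3, Dad1, Sec24c, Sec22b and Kdelr1. Of all genes, 7.86% were lower at all of these hours. Ssr1 missed the threshold at 48 h without wild-type IFN-γ replicate 2 (-0.09), and Sec22b at 48 h without wild-type IFN-γ replicate 1 (-0.12) and at 24 h without wild-type untreated replicate 1 (-0.12) or Nrf2 -/- IFN-γ replicate 1 (-0.11). Dad1, an oligosaccharyltransferase subunit named for the cell death that follows its loss, stood at 58.3, 47.9, 53.4, 56.2 and 56.1 CPM without and 45.5, 45.8, 37.8, 38.7 and 39.1 CPM with IFN-γ at 24 h (-0.37 ± 0.07, adjusted p = 7.19e-06). Its fall at 8 h (-0.17) was lost when any of 8 single libraries was left out. Of the SRP proteins, Srp19, which helps to fold the particle's RNA, differed most, at 58.0, 55.1, 51.3, 54.0 and 54.9 CPM without and 39.7, 38.6, 34.3, 39.6 and 44.2 CPM with IFN-γ at 24 h (-0.49 ± 0.07). Untreated libraries held 2 to 9 raw counts of Kdelr3 at 1 h and 23 to 41 at 24 h. With IFN-γ Kdelr3 was lower by 2.08 ± 0.28 at 24 h, at 1.10, 1.35, 0.957, 0.783 and 0.685 CPM without and 0.378, 0.162, 0.143, 0.252 and 0.229 CPM with IFN-γ, and lower by 1.28 at 48 h. With transcript-level estimates these 2 values were -1.05 and -0.01, and the second no longer passed the test.

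Of the 5 signal peptidase genes, 2 were called higher and 1, Sec11a (-0.11), lower at 24 h of IFN-γ, and the call on Sec11a was lost without any of 10 single libraries. Sec11c was higher than in untreated cells by 0.14 at 8 h, a call lost without any of 3 single libraries. It was higher by 0.38 ± 0.05 at 24 h and lower by 0.22 at 48 h. At 24 h it stood at 38.04, 40.33, 39.97, 38.20 and 42.62 CPM without and 51.5, 52.0, 50.1, 52.9 and 53.1 CPM with IFN-γ. With IFN-γ its level declined over the hours, from 57.1 to 61.4 CPM at 8 h to 40.2 to 47.4 CPM at 48 h. Untreated libraries held 48.98 to 56.6 CPM at 8 h and 48.1 to 56.8 CPM at 48 h, so the untreated level dipped at 24 h. Spcs3 rose by 0.21 at 24 h, a call lost without any of 6 single libraries. In the oligosaccharyltransferase, Stt3b rose at 8 h (0.18) and at 48 h (0.20, or 0.11 without wild-type IFN-γ replicate 2 and 0.32 without replicate 1), Rpn1 rose at 48 h (0.25), and Stt3a fell at 24 h (-0.21). Srp14, Sec61a1, Ssr2 and Sec24b were called at no hour of IFN-γ.

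The 48 h response differed from the 8 h response, tested as such, in 15 members upward and 4 downward (21.4% and 20.4% of all genes). The largest upward differences were in Sec24d (0.73 ± 0.11) and Sec23a (0.72 ± 0.07), followed by Sec61b (0.57). The downward ones were Sec62 (-0.59), Sec63 (-0.47), Sec11c (-0.36) and Srp72 (-0.15). The call on Srp72 was lost without any of 11 single libraries, and Sec62 missed the threshold without wild-type IFN-γ replicate 1 at 48 h (-0.43, adjusted p = 0.0693). Set against each other at 8 h, thapsigargin and IFN-γ libraries differed in 41 members, 40 of them higher with thapsigargin and 1, Spcs1, lower (34.1% and 33.8% of all genes), with a median difference of 1.51. This contrast compares the treated libraries directly and shares them with the responses above. The genes around the members gave 6 higher and 27 lower at 8 h of IFN-γ, 13 and 50 at 24 h, and 28 and 33 at 48 h, of 107 tested.

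In untreated cells, 20 members rose and 12 fell from 1 to 48 h, with a median of 0.13. The share called in either direction was near that of all genes, of which 34.5% rose and 33.6% fell. Over the same hours the oligodendrocyte markers went from a median sum of 5645 to 35358 CPM, the precursor markers from 6550 to 3269 CPM and the astrocyte markers from 14.98 to 75.21 CPM, and their part in the members' values was not tested. Kdelr3 (2.43 ± 0.35), Sec24a (1.11 ± 0.23), Sec62 (0.73 ± 0.12) and Srprb (0.72 ± 0.05) rose most. The value for Sec24a was 0.71 without wild-type untreated replicate 2 at 48 h, and that for Kdelr3 was 0.20, not called, with transcript-level estimates. Sec61g (-0.62), Sec61b (-0.52) and Ssr4 (-0.47), all small subunits at the translocon, fell most. Of the 5 signal peptidase genes, 4 fell and 0 rose. Across the 20 group means, the median correlation between members was 0.85 over 946 pairs; without the 2 thapsigargin 8 h groups it was 0.31, so the joint movement rests largely on those groups.

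Loss of Nrf2 was compared in each response and under each treatment. No member was called in any of the 6 tests of a response in Nrf2 -/- against wild type, by edgeR's quasi-likelihood test or DESeq2, and 0% of all genes were called in each. Unadjusted p-values below 0.05 numbered 0, 5, 0, 3, 3 and 4 of 44 for thapsigargin at 1 and 8 h and IFN-γ at 1, 8, 24 and 48 h. The thapsigargin 8 h response of Kdelr3 differed between genotypes by 0.28 on the log2 scale (95% interval -1.01 to 1.57), and that of Sec24d by 0.02 (-0.28 to 0.32). The largest difference in that response was -0.98, in Sec24a, which rose by 2.17 in wild-type and 1.19 in Nrf2 -/- cells. Its 2 wild-type thapsigargin libraries held 2628 and 6158 raw counts. At 8 h of IFN-γ Kdelr3 differed by 2.47 (-2.32 in wild-type and 0.15 in Nrf2 -/- cells), on raw counts of 0 to 9. Neither difference was called. For 4 of the 6 tests the count stayed at 0 whichever 1 library was left out, and for the other two it depended on a single wild-type library. Without wild-type thapsigargin replicate 1 at 8 h, Srprb (0.43, adjusted p = 0.0499) and Sec23b (0.42, adjusted p = 0.0380) were called higher in the Nrf2 -/- response, as were 0.534% of all genes in that fit. Without wild-type IFN-γ replicate 2 at 48 h, 7 members were: Srp72, Sec63, Stt3b, Sec16a, Sec22b, Kdelr1 and Tmed10, with log2 differences of 0.30 to 0.55, and 3.79% of all genes were called higher in that fit. With all libraries, the same 7 had differences of 0.13 to 0.28 and adjusted p-values of 0.521 to 0.830.

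Averaged over hours, no member differed between genotypes in untreated, IFN-γ or thapsigargin libraries, where 0.0243%, 0.0547% and 0.51% of all genes were called, and DESeq2 also called 0. Unadjusted p-values below 0.05 numbered 0, 1 (Sec63) and 1 (Sec24a). Without wild-type IFN-γ replicate 2 at 48 h, Sec63 was called in the IFN-γ libraries (0.11, adjusted p = 0.0288), where 0.586% of all genes were called higher. Within each genotype alone, 40 members were called after 8 h of thapsigargin, 38 higher and 2 lower in wild-type cells (28.4% and 27.1% of all genes) and 40 higher and 0 lower in Nrf2 -/- cells (30.4% and 29.6%).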

How the data were processed

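RNA was sequenced on an Illumina HiSeq, per the labels' protocols. The authors deposited a table of gene counts, made with STAR and featureCounts, and a table of transcript-level estimated counts from kallisto, per the submitters' processing notes. For versions, genome build, annotation and strandedness the entry is: not given in the sources used here. Of 39056 gene entries, 38872 matched GENCODE M21 (GRCm38) without the version suffix, which gave symbols and exon lengths; 16 members share exonic bases with another annotated gene.

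Groups came from the labels. Genes were filtered with filterByExpr (minimum count 10), leaving 16460, and fitted in edgeR 4.0.16 (R 4.3.3) with TMM normalization, 1 mean for each of 20 groups, and robust quasi-likelihood tests; both genotypes weigh equally in a response. A call is an adjusted p below 0.05 over all genes tested. The count test was checked on simulated data. CPM and RPKM use TMM-scaled library sizes. RPKM divides by the length of all annotated exons of a gene, so ranks between members depend on that length. Alternatives were DESeq2 1.42.0, no filter, estimated counts summed per gene and rounded (99.654% of them assigned to a gene), 1 genotype alone, the relabelled libraries left out or moved, each library left out in turn and, added after the data were seen, a block of consecutive library numbers.

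Library-by-library values are given, per role, for the member with the largest thapsigargin 8 h fold, that with the largest IFN-γ fold and members going against their class; Sec23a and Ssr3 at 24 h were added after values were seen. The members and lists were chosen with earlier results of these data known. The sequence of the third UPRE match is not reported here.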

Additional observations from a re-analysis of the deposited data

How the results depend on the processing

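Over the alternatives other than leaving out 1 library, 3381 of 3727 results kept both their direction and their side of the threshold, 137 changed sign without being called in either fit, 167 lost the call, 40 gained it and 2 called results changed sign. Leaving out 1 library gave 4856, 189, 172, 63 and 0 of 5280. The 2 called results that changed sign were Tmed10 at 48 h of IFN-γ, at 0.010 in Nrf2 -/- cells alone (-0.13 in the combined fit), and Sec61g in the 48 h against the 8 h IFN-γ response, at -0.016 with transcript-level estimates (0.36 from gene counts); the cause was not tested. The count of members called after 8 h of thapsigargin ranged from 40 to 43 over these alternatives. The count after 1 h of thapsigargin (10) was 4 with transcript-level estimates, 3 in wild-type cells alone, 3 in Nrf2 -/- cells alone and 4 to 14 when 1 library was left out (4 without wild-type thapsigargin replicate 1, 6 without wild-type untreated replicate 2 and 14 without Nrf2 -/- thapsigargin replicate 2). In wild-type cells alone, with 2 libraries a group, the count was 16 at 24 h of IFN-γ (27 in the combined fit) and 19 at 48 h (30), and in Nrf2 -/- cells alone 11 members differed between the 48 h and 8 h IFN-γ responses (19). These single-genotype fits hold fewer libraries. Counts of members called between genotypes ranged, over left-out libraries, from 0 to 2 for the thapsigargin 8 h response (2 without wild-type thapsigargin replicate 1), 0 to 7 for the IFN-γ 48 h response and 0 to 1 for the IFN-γ libraries (both highest without wild-type IFN-γ replicate 2 at 48 h). Depth limits Kdelr3, which had 2 to 8 counts in each untreated library at 8 h.

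The labels give no replicate numbers and tie no libraries to a shared culture. The library numbers in the titles run in 20 consecutive sets of 1 genotype and hour with 1 library per treatment, and a replicate block of these sets was added after the data were seen. Deviations from the group means correlated between libraries of a set by -0.0682 to 0.249 (median 0.08, 40 pairs), so the sets were not taken as pairs. With the replicate block, 11 members were called at 1 h and 43 at 8 h of thapsigargin, 0, 21, 29 and 33 at 1, 8, 24 and 48 h of IFN-γ, 22 between the 48 h and 8 h IFN-γ responses, and 0 in each of the 6 differences between genotypes.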

Other observations

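Sec61g, the member that rose at 8, 24 and 48 h of IFN-γ, also changed in which transcript its estimated counts were assigned to, and in opposite directions under the 2 treatments. These values come from the deposited transcript-level estimates and were chosen after 80 transcripts of the members had been looked at for mean shares that differed by at least 10 percentage points, so they carry no test. In GENCODE M21 (GRCm38, chromosome 11, minus strand), transcripts Sec61g-203 and Sec61g-206 share their first 3 exons. Their last exon has the same upstream boundary but is 1278 bases long in Sec61g-203 (16500530 to 16501807) and 170 bases long in Sec61g-206 (16501638 to 16501807). Sec61g-206 held 41.8% ± 5.25 (SD, n = 5) of the gene's estimated counts in untreated cells at 8 h, 62.0% ± 2.52 with IFN-γ and 9.22% ± 6.19 with thapsigargin. Sec61g-203 held 34.7% ± 3.75, 20.5% ± 1.94 and 56.7% ± 4.61 in the same libraries. The shares rest on few estimated counts. In untreated cells at 8 h the means were 234 for Sec61g-206 and 193 for Sec61g-203, where the gene counts of Sec61g were 1651 to 1976. With thapsigargin the means were 92.4 and 560, beside gene counts of 2560 to 3584, and the lowest Sec61g-206 share was 4.27e-07%. At 24 h Sec61g-206 held 47.1% ± 3.05 without and 56.8% ± 4.28 with IFN-γ. For Sec11a, the other gene singled out in this way, transcript Sec11a-201 held 63.8% ± 1.18 of the estimated counts in untreated cells at 8 h and 75.7% ± 4.42 with thapsigargin. It was also higher with IFN-γ, at 70.2% ± 4.12 at 8 h, 72.4% ± 3.76 against 61.7% ± 5.38 at 24 h and 63.5% ± 3.98 against 53.5% ± 2.81 at 48 h.

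The GENCODE M21 spans of Sec24a and Sar1b lie head to head on chromosome 11 with 52 bases between them. The RefSeq promoter window of Sec24a (51756785 to 51757084) lies inside its GENCODE span, so the distance depends on the annotation. After 8 h of thapsigargin Sec24a rose by 1.68 on the log2 scale. Sar1b fell by 0.16, with overlapping ranges and a call lost without either of 2 single libraries. At 24 h of IFN-γ both were lower, by 0.58 and 0.24.

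Sec24a and Sec24b, on different chromosomes, were high in the same libraries, as to a smaller degree was Srp68. Replicate 3 of the untreated Nrf2 -/- group at 8 h held 55.5 and 57.7 CPM of Sec24a and Sec24b, where the other 4 untreated libraries of that hour held 25.6 to 27.6 and 23.8 to 32.2 CPM. Wild-type thapsigargin replicate 2 at 8 h held 165 and 59.0 CPM, beside 70.0 to 97.7 and 29.4 to 40.2 CPM in the other 4. Wild-type untreated replicate 2 at 48 h held 108 and 58.9 CPM, beside 42.9 to 55.3 and 28.8 to 34.7 CPM in the other 4. Srp68 stood at 56.6, 133 and 56.4 CPM in these libraries, in the same order. The others of each treatment and hour held 38.8 to 48.4, 89.4 to 106 and 36.2 to 44.8 CPM of Srp68. The cause was not tested. The first of these libraries is also the Nrf2 -/- library with 7.62 CPM of Nfe2l2.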
